A study of Homo sapiens with 4 samples.

Results

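The arrays carried 6153 probes whose listed target name starts with TCONS_, out of 50599 probes besides controls, which is 12.2% of the array. The rule that picks these probes uses that name and no measured value. A TCONS name is the kind of name that transcript assembly programs give to a reconstructed transcript, and on this design such names stand for large intergenic noncoding RNAs. Among them, 1167 probes have names that start with TCONS_l2_, a subset that the sources used here do not explain, and 4986 have plain TCONS_ names. The 6153 probes cover 6073 names, of which 6000 have 1 probe, 69 have 2, 3 have 3 and 1 has 6. Each probe was printed as 1 spot, so no value below has repeat spots behind it.

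Large intergenic noncoding RNAs are transcribed from stretches of the genome between protein-coding genes. Most are capped, spliced and polyadenylated like messenger RNAs, but they hold no long open reading frame. As a class they are known for low abundance and for expression that is restricted to few cell types, and only a minority have a described function. NM_ names, in contrast, mark probes for curated protein-coding transcripts, and 25219 probes of the array have one. They served as the comparison class.

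The RNA was labelled as coming from 1 cell line, MCF-10A, which was established from non-tumorous human breast epithelium. The cells were given 10 µM of a peptide whose helix is held by a hydrocarbon staple, labelled either stapled-peptide or non-specific stapled-peptide, and RNA was taken after 24 h or 48 h. Stapled peptides of the study were built to block the binding of BIG3 to PHB2, a suppressor of the oestrogen receptor. There was 1 Agilent array for each peptide and time, 4 in all. No condition had a second array, and no test between conditions was run. Precision is limited by having so few arrays. The arrays are called S24 and S48 for stapled-peptide and N24 and N48 for non-specific stapled-peptide, with the hours as the number. In the labels N24 and N48 have control as their treatment, and neither name is tied to a numbered peptide, so differences between peptides are given as N minus S. All levels are log2 of the background-subtracted spot signal after quantile normalization over the 4 arrays, and sets of 4 values run in the order S24, N24, S48 and N48. Well above background is a mark that the image software sets on a spot, and 2 of the 6153 probes lost an outlier-marked spot and were left out, which leaves 6151.

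N48 stood apart from the other 3, and every comparison that uses it carries that difference. Over 10 markers of basal mammary epithelium, among them the keratins KRT5, KRT14 and KRT17, the mean level was 11.8, 11.7 and 11.7 on the other 3 arrays and 5.46 on this one, with all 10 well above background on all 4. Over 5 genes typical of an embryonic kidney line, among them the RNA-binding protein LIN28B, it was 5.08, 4.93 and 4.95 against 13.4, with 2, 3, 2 and 5 of them well above background. HOXA9 and CKB, which belong to these 5, were well above background on every array. The marker lists were chosen with earlier results of these data known, so they are not independent evidence of the RNA's source. Of 6 luminal markers 5 were well above background on every array, with means of 8.01, 7.96, 8.24 and 7.28. Of 4 fibroblast markers 2, 2, 2 and 3 were so marked, with means of 6.47, 6.61, 6.40 and 4.61. Members of these 2 classes did not move alike on N48. Among luminal markers KRT8 and KRT18 were lower there and FOXA1 was higher. DCN read 14.8, 15.0, 14.9 and 5.73, COL1A1 read 6.41, 6.48, 6.54 and 6.67, and LUM was marked on N48 alone. COL1A2 was marked on no array. Of 3 blood markers 3, 3, 3 and 2 were so marked, with means of 7.03, 6.85, 6.86 and 4.44. Between 62.5% and 65.7% of all spots were well above background on each array. Pearson correlations of the TCONS probes between arrays, over the 3237 probes well above background somewhere, were 0.859 to 0.874 among the other 3 arrays and 0.642 to 0.667 with N48. For NM_ probes they were 0.988 and 0.794 to 0.796. What part this array's RNA source has in the differences at 48 h was not tested.

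Sequences of the array probes and positions of the TCONS transcripts were not in the files used here. RefSeq lists 67 TCONS names as synonyms of a gene symbol, and 10 of these names are on the array, each with 1 probe and all annotated as long noncoding RNA. Of the 10, FOXCUT, COL1A2-AS1 and LINC01374 were well above background on all 4 arrays. The FOXCUT promoter and the LINC01374 promoter are shown here because these transcripts are the named members that every array detected and RefSeq's promoter table holds both. Each is 300 bases of GRCh38.p14 on the plus strand, from 250 before the annotated start, read 5′ to 3′, with CG pairs in capitals.
FOXCUT, chr6:1605281-1605580: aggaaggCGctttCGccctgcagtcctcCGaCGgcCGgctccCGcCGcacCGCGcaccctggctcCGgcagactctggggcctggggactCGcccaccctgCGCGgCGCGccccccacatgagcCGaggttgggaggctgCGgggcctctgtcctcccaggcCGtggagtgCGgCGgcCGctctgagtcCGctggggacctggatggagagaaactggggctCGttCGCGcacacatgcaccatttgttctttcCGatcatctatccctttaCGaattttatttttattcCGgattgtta
LINC01374, chr10:89853656-89853955: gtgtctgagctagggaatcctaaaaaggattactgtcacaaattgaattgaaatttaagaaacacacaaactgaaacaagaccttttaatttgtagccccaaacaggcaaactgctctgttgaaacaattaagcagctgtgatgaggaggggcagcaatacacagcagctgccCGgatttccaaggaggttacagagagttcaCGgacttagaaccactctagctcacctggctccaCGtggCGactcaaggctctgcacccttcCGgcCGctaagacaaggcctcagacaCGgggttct
The FOXCUT promoter holds 28 CG pairs and the LINC01374 promoter 7, against a median of 14 over 35116 promoters of that length, with quartiles of 4 and 28. Neither holds TATAAA on either strand, which 11.5% of all those promoters hold. Nor do they hold GGGCGG, present in 45.0%. The letters CCAAT, present in 34.6%, are likewise not in these windows.

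The peptide differences of these 3 transcripts stayed under 2-fold at each time. FOXCUT, annotated on chromosome 6 at 1605531 to 1607358 near the transcription factor gene FOXC1, read 5.29, 5.48, 5.40 and 5.91. COL1A2-AS1, annotated on chromosome 7 at 94367212 to 94392192 and named as antisense to a collagen gene, read 5.52, 4.90, 5.09 and 4.23, highest on S24 and lowest on N48, so it was lower with the non-specific peptide by 0.62 at 24 h and 0.86 at 48 h on the log2 scale. LINC01374, annotated on chromosome 10 at 89853906 to 89914956, read 4.30, 4.18, 4.30 and 4.74.

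A further 3 named members were well above background on 1 array each. THRIL, a noncoding RNA known from the regulation of TNF, reached 4.77 on N48 and lay between 3.19 and 3.71 elsewhere, below the mark. LINC01081, known from the FOXF1 region of lung development, was marked at 4.25 on N24 and read 2.67 to 3.87 on the rest. LINC01679 was marked at 4.59 on S48, with 1.78 to 3.42 elsewhere. The other 4, IATPR, LINC01080, ERICD and MAFA-AS1, carried the mark on none of the arrays and lay between 1.74 and 3.27. RefSeq positions also show how the names are numbered. Sorted by number, the 60 plain TCONS names in RefSeq fall into 20 runs, 1 for each of 20 chromosomes.

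Fewer TCONS probes than NM_ probes gave a signal well above background. Of the 6151 TCONS probes, 35.4% were well above background on S24, 38.1% on N24, 35.0% on S48 and 35.7% on N48. The exact 95% binomial intervals, which cover counting of probes only, were 34.2% to 36.6%, 36.9% to 39.4%, 33.8% to 36.2% and 34.5% to 36.9%. Of the NM_ probes, 75.2%, 76.7%, 75.7% and 78.1% were well above background. TCONS probes were marked far less often than NM_ probes on every array.

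Among probes of like signal the gap was smaller on every array. The mark follows signal closely in both classes, so matching on signal brings the shares together largely by construction. When NM_ probes were weighted to the same distribution of mean signal, in 20 bins cut at the quantiles of the TCONS probes, 32.3%, 35.4% and 33.2% of them were well above background on the first 3 arrays, a little under the TCONS shares. On N48 the like-signal NM_ share was 42.3%, above the TCONS share of 35.7%. Within the TCONS probes, the TCONS_l2_ subset was detected more often, at 40.02%, 43.4%, 39.8% and 44.9%, against 34.3%, 36.9%, 33.9% and 33.5% of the plain names. Under the software's weaker mark, which asks only that a spot be positive and differ from its local background, the TCONS shares were 73.7%, 76.4%, 74.5% and 75.8%, so the share detected depends on the mark.

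Counted over arrays, 2914 TCONS probes (47.4%) were well above background on none, 892 (14.5%) on 1, 460 (7.48%) on 2, 484 (7.87%) on 3 and 1401 (22.8%) on all 4. NM_ probes at like signal split into 43.6%, 19.8%, 7.15%, 8.70% and 20.8%. The lower TCONS share on exactly 1 array, given here with no test, came from N48.

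The arrays did not share these single marks evenly. N48 alone marked 397 TCONS probes, or 6.45%, against 13.6% of like-signal NM_ probes and 5.71% of all NM_ probes. S24 alone marked 142 (2.31%, against 1.56% at like signal), N24 alone 218 (3.54%, against 2.69%) and S48 alone 135 (2.19%, against 1.94%). On these 3 arrays the TCONS share was thus the higher, and on N48 the lower. The opposite pattern, marked on the other 3 arrays and not on this one, held for 293 TCONS probes, or 4.76%. That is near the 4.93% of like-signal NM_ probes, and it held for 3.84% of all NM_ probes. Single marks sat close to the threshold: the highest of the 4 values averaged 4.78 over those 397 probes and 6.25 over the 1401 probes marked everywhere.

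Signals were low throughout. The median TCONS level was 3.53, 3.51, 3.51 and 3.37, and the lowest level that carried the well-above-background mark on an array was 3.57 to 3.94. A level of 10 was passed by 52, 52, 51 and 51 TCONS probes, of which 37, 37, 36 and 37 were TCONS_l2_ probes although that subset is 1167 of 6153. Signals of different probes also depend on their sequences, so they do not rank transcripts by abundance.

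All 5 probes with the highest mean level were TCONS_l2_ probes. TCONS_l2_00009118 (probe A_21_P0011376) read 17.31, 17.30, 17.31 and 16.86, and TCONS_l2_00010291 (A_21_P0011491) read 17.02, 17.05, 17.05 and 17.11. TCONS_l2_00005546 (A_21_P0011041) read 17.10, 16.96, 16.93 and 16.28. On the other 3 arrays each of these moved by at most 0.16, and the lowest value of TCONS_l2_00005546 was that on N48. TCONS_l2_00016171 (A_21_P0012112) read 16.52, 16.52, 16.56 and 16.23. TCONS_l2_00030893 (A_21_P0013877) read 16.24, 16.16, 16.29 and 15.99. None of the TCONS spots was saturated.

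The spread over arrays was taken as the SD of a probe's 4 log2 signals. Its median was 0.494 for TCONS probes and 0.467 for all NM_ probes, and 0.532 for NM_ probes at like signal, so the ratio of TCONS to like-signal NM_ spread was 0.929. Without N48 the TCONS median fell to 0.308 and the like-signal NM_ median to 0.280, and the ratio turned to 1.103, while all NM_ probes had 0.105. With all 4 arrays but only probes well above background on each, the ratio was 1.07. After the normexp correction the medians were 0.103 for TCONS and 0.108 for like-signal NM_ probes. Leaving out any other array gave ratios of 0.914 to 0.929. Across the other 3 arrays TCONS_l2_ probes had a median SD of 0.278 and plain names 0.316.

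The spread went with signal. Over the other 3 arrays the median SD of TCONS probes was 0.312 at a mean level under 3, 0.372 from 3 to 5, 0.208 from 5 to 7, 0.0860 from 7 to 10 and 0.0531 over 10. NM_ probes in the same ranges had 0.333, 0.337, 0.155, 0.0732 and 0.0471. The yardstick for technical error came from 902 probes printed 10 times, whose spots on 1 array differed with a median SD of 0.408, 0.406, 0.151, 0.0754 and 0.0519 in those ranges. These are other probes, so they give only the scale of spot noise at a signal. The range under 3 pools probes at the floor of the scale, with an SD of 0.0212 or less in the 3 dimmest bins, and probes above it, such as those of the bin at 2.62 with a TCONS median of 0.680 and a spot median of 0.582. With all 4 arrays the TCONS spread was 0.454 from 5 to 7, 0.524 from 7 to 10 and 0.316 over 10, against 0.452, 0.423 and 0.350 for NM_ probes.

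For differences between 2 arrays, a probe well above background on only 1 of them enters as a bound, with the dim side raised to the lowest well-above-background level of its array where it was below that. A probe dim on both arrays has no value. At 48 h, 2746 TCONS probes had a difference between the peptides and 24 of them passed 10-fold, 12 higher and 12 lower with non-specific stapled-peptide. Without normalization between arrays 25 were higher and 11 lower, and after the normexp background correction 7 passed in all. Over all probes with a difference at 48 h, 1.99% passed 10-fold higher and 2.51% lower. The TCONS share in both directions was 0.874%, against 6.01% of NM_ probes and 4.61% of NM_ probes at like signal. At 4-fold the TCONS share was 6.45% and that of like-signal NM_ probes 15.0%. In RNA pooled from a culture, fewer cells that make a transcript and less of it per cell cannot be told apart.

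At 24 h, 5 of 2622 TCONS probes passed 10-fold, 2 higher and 3 lower with non-specific stapled-peptide. All 5 were bounds, and 0 passed after normexp or among probes well above background on both arrays. Over all probes the shares were 0.0152% higher and 0.0486% lower. Here the TCONS share of 0.191% lay above that of NM_ probes, 0.0405%, and of NM_ probes at like signal, 0.0835%. The 4-fold shares were 2.40% and 1.08% at like signal, and 61 of those 63 TCONS probes lie in the upper rows of the array. Relative to NM_ probes of like signal, TCONS probes thus passed these thresholds less often at 48 h and more often at 24 h, with 1 array a side and no test.

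Between times with stapled-peptide, 0 of 2534 TCONS probes were over 10-fold higher at 48 h and 3 were over 10-fold lower, where 0% and 0.0398% of all probes passed. With non-specific stapled-peptide, 16 of 2891 were over 10-fold higher at 48 h and 17 lower, against 2.03% and 2.5% of all probes. With each array scaled to its 75th percentile instead, 10 were higher and 21 lower. All 24 probes called between the peptides at 48 h were also among these 33, and the comparisons share N48.

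The middle of the distribution moved as well at 48 h. The median TCONS difference was -0.34 and that of like-signal NM_ probes -0.03, and 39.1% of TCONS probes were higher with non-specific stapled-peptide against 49.3% of like-signal NM_ probes. With bounds included the median was -0.40 for plain names and -0.04 for TCONS_l2_ names. Where both arrays carried the mark it was negative for both kinds at mean levels over the 4 arrays of 3 to 5, 5 to 7 and 7 to 10, at -0.25, -0.50 and -0.85 for plain names and -0.14, -0.38 and -0.32 for TCONS_l2_ names. ENST probes, named for Ensembl transcripts, had -0.12, -0.25 and -0.31 there, and NM_ probes -0.03, -0.08 and -0.02. NR_ probes, named for RefSeq noncoding transcripts, went the other way, at 0.09, 0.23 and 0.28. At mean levels over 10 the median was -0.69 for 9 plain TCONS_ probes and 0.04 for 35 TCONS_l2_ probes. Scaling each array to its 75th percentile moved the TCONS median to -0.55 and that of like-signal NM_ probes to -0.27, and without normalization they were -0.17 and 0.11. The distance between TCONS and NM_ medians stayed between -0.31 and -0.28 under these scalings, and it was -0.08 after the normexp background correction, which shrinks differences of dim probes. At 24 h the medians were -0.02 and 0.02.

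The 24 probes called at 48 h carry 22 names, and 12 of them are TCONS_l2_ probes. For 22 of the 24 the other 3 arrays lay within 2-fold of each other, so N48 was the array that differed. The difference of 11 of them is a bound.

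Large falls on N48 were seen for TCONS_l2_00005178, which has 2 probes. Probe A_21_P0011015 read 10.67, 10.58, 10.61 and 1.5003, and probe A_21_P0011016 read 10.38, 10.11, 10.00 and 1.90, both not well above background on the last array. Their signals were at least 132-fold and at least 86.3-fold lower there. The 2 probes of this name lie in rows 213 and 153 of the array and went the same way. TCONS_l2_00014537 (A_21_P0011912) read 11.37, 11.27, 11.31 and 4.66, which is 101-fold lower and, unlike the former, still well above background. TCONS_00020641 (A_21_P0007662) read 9.78, 9.85, 9.64 and 4.68, a 31.1-fold difference. These 3 names were flat over the other 3 arrays, with ranges of 0.10 to 0.38 per probe.

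Smaller falls followed in dimmer probes. TCONS_00010780 (A_21_P0004526) read 7.76, 7.71, 7.81 and 3.64, at least 17.9-fold lower. TCONS_l2_00013854 (A_21_P0011831) read 7.86, 7.91, 7.95 and 3.93, or 16.3-fold lower. In both, the other 3 arrays agreed to within 0.10. TCONS_00020392 (A_21_P0007547) read 7.49, 7.48, 7.52 and 3.55, at least 15.5-fold lower. TCONS_l2_00017559 (A_21_P0012241) read 8.04, 7.99, 8.08 and 4.13, or 15.4-fold lower. The next probe marked on the other 3 arrays but not on this one was TCONS_00010293 (A_21_P0004374), with 7.21, 7.11, 6.97 and 1.59.

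In the other direction, TCONS_l2_00028188 (A_21_P0013514) read 6.99, 7.16, 6.83 and 12.48, and was 50.3-fold higher on N48. TCONS_l2_00027739 (A_21_P0013475) read 7.63, 7.61, 7.68 and 12.78, or 34.3-fold higher. TCONS_00017433 was measured by 2 probes, A_19_P00327297 with 8.07, 8.11, 8.08 and 12.55, and A_19_P00326248 with 5.51, 5.57, 5.73 and 10.01. Their levels differed by over 2 log2 units on every array, while their differences at 48 h were 4.47 and 4.28.

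A further 4 of the 12 rises came from as many names. TCONS_l2_00028187 (A_21_P0013513) was not well above background at 1.95, 2.05 and 1.95 and read 8.33 on the last array, at least 21.7-fold higher. TCONS_l2_00028240 (A_21_P0013517) read 4.72, 4.48, 5.12 and 9.48, a 20.5-fold difference. TCONS_00017074 (A_21_P0006456) read 5.39, 5.51, 5.46 and 9.28, or 14.1-fold higher. These 3 were low on S24, N24 and S48 alike. TCONS_00017455 (A_21_P0006570) read 3.30, 4.02, 3.49 and 7.65, at least 13.6-fold higher.

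Some of these names lie close in number. TCONS_l2_00028187 and TCONS_l2_00028188 are neighbours, and TCONS_l2_00028240 follows within 60 numbers. Between them, TCONS_l2_00028190 read 4.75, 4.67, 5.18 and 4.03 and TCONS_l2_00028204 read 13.50, 13.62, 13.55 and 14.08, so neither took part in a 10-fold rise. From TCONS_00017433 to TCONS_00017455, 4 names are on the array. TCONS_00017454 read 11.57, 11.70, 11.73 and 14.24, a rise of 2.51, and TCONS_00017435 had no value at 48 h because it was dim on both arrays.

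Over all names, neighbours by number went the same way only a little more often than not. Of 1875 pairs with numbers 1 apart, 356 had a difference at 48 h for both, 57.9% of these had the same sign, and the differences correlated with r = 0.21 as a description over pairs that share both arrays. Pairs 2 and 3 apart had the same sign in 56.7% and 57.1%. Since 39.1% of single TCONS probes were higher at 48 h, signs were not evenly split to begin with.

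Probes of the same name were compared in the same way. There were 93 such pairs, and in 33 both probes had a difference at 48 h. Of these, 25 pairs (75.8%) had the same sign, with r = 0.77 and a median distance of 0.61. A few names carry many of these pairs, since 10 came from TCONS_00016491, whose 5 probes with a value lay between -1.52 and -0.02, and 3 from TCONS_00004564, whose 3 probes were all lower as well. Among the 17 names with a value for exactly 2 probes, 11 pairs (64.7%) had the same sign. Where both probes were well above background on both arrays, 19 of 20 pairs had the same sign, with r = 0.84 and a median distance of 0.27, and 8 of 9 among the names with exactly 2. Only 4 of the 33 pairs had both differences over 2-fold. Over all 93 pairs the mean levels on the other 3 arrays correlated with r = 0.30. In 37 of the 93 pairs 1 probe was well above background somewhere and its partner was not, and in 13 neither was. On the same pairs, r was lower for levels than for differences. It was 0.16 for levels and 0.84 for differences over those 20 pairs, and 0.68 and 0.92 over the 17 names. Only 2 of the 20 pairs and 4 of the 17 had both differences over 2-fold. A few large differences can weigh heavily in r, so it does not show how ordinary pairs compare. TCONS_00014970 has a pair of probes that were both dim on the other 3 arrays. Its probes A_19_P00327406 and A_19_P00807207 were not well above background on the other 3 arrays, at 1.60 to 1.78, and read 6.65 and 7.24 on N48, at least 6.80-fold and 10.2-fold higher. TCONS_00015178 had less agreement, with 3 probes whose differences ran from -0.55 to 3.31.

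The brightest probes marked on N48 alone were TCONS_l2_00028187, the TCONS_00014970 probe A_19_P00807207 and 3 more. TCONS_00026485 (A_21_P0009543) read 4.20, 3.39, 4.17 and 7.45. TCONS_00028427 (A_21_P0010052) read 1.87, 2.92, 3.62 and 7.29. The TCONS_00015178 probe A_19_P00802390 read 3.98, 3.75, 3.42 and 7.19. The spots of these last 3 lie in rows 24, 16 and 13 of the 384 rows of the array.

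At 24 h the called probes looked different from those at 48 h. TCONS_00022459 (A_21_P0008315) read 7.50, 1.72, 1.70 and 1.70, TCONS_00025308 (A_21_P0009220) read 7.45, 1.80, 1.79 and 1.79, and TCONS_00004713 (A_21_P0002577) read 7.20, 1.89, 1.89 and 1.89. In all 3 only S24 was well above background, and the fall with non-specific stapled-peptide was at least 13.1-fold, 12.7-fold and 10.73-fold. TCONS_00014572 (A_21_P0005641) read 7.10, 2.26, 2.61 and 6.18, so its difference was at least 9.96-fold lower at 24 h and at least 4.91-fold higher at 48 h.

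The rises at 24 h were highest on N24. TCONS_00022478 (A_21_P0008324) read 2.03, 7.64, 2.67 and 5.27, at least 13.0-fold higher at 24 h, and it was marked on N48 as well, with a bound of 1.38 at 48 h. TCONS_00015970 (A_21_P0006142) read 3.74, 7.41, 4.44 and 3.92, at least 11.1-fold higher. Both read over 2 log2 units less on N48 than on N24. TCONS_00014767 (A_21_P0005726) read 3.69, 7.11, 3.91 and 3.33. TCONS_00016317 (A_21_P0006266) read 2.83, 6.46, 1.84 and 1.81.

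Between 24 h and 48 h with stapled-peptide, the 3 falls over 10-fold again stood on S24. TCONS_l2_00020535 (A_21_P0012585) read 7.95, 5.18, 3.53 and 4.30, at least 16.8-fold lower at 48 h, and TCONS_00022459 and TCONS_00025308 were at least 12.2-fold and 11.8-fold lower. The highest rises were below 10-fold. TCONS_00017372 (A_21_P0006550) read 3.27, 3.38, 6.82 and 4.46, TCONS_00021907 (A_21_P0008120) read 1.87, 3.803, 6.76 and 1.85, and TCONS_00017186 (A_21_P0006501) read 2.44, 3.33, 6.73 and 2.71. Each of these 3 was highest on S48, and TCONS_00017372 was also well above background on N48.

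Probes that stood over 4-fold above each other array were therefore counted. There were 44 such TCONS probes on S24 (0.715%, against 0.354% of all probes), 28 on N24 (0.455%, against 0.249%) and 29 on S48 (0.471%, against 0.297%). At like signal NM_ probes gave 0.417%, 0.348% and 0.305%. On N48 there were 153 (2.49%, against 5.93% of all probes and 9.12% of like-signal NM_ probes). Of these, 33, 22, 25 and 121 were well above background on their own array alone. The rule itself favours this, since it places the other arrays over 4-fold lower, where dim probes often fall below the mark.

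Their place on the array was uneven. Rows 1 to 192 of the 384 hold 50.5% of the TCONS probes, and they hold 44 of the 44, 26 of the 28 and 29 of the 29 single-array highs of the first 3 arrays, and 89 of the 153 on N48. NM_ probes printed once did likewise, with 46, 34 and 32 in those rows and 1, 3 and 1 below them, and on N48 795 of them lay in the upper and 819 in the lower rows. Neighbouring spots went together: 30 of the 44, 12 of the 28 and 22 of the 29 had another such spot within 3 rows and columns. Of the other TCONS probes 7.30%, 6.45% and 6.26% had one that near. These shares cover all 384 rows, so the crowding into the upper rows adds to the gap. On N48 146 of the 153 had one that near, against 88.1% of the other TCONS probes.

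The same rows held the differences at 24 h. Of 63 TCONS probes over 4-fold between the peptides at 24 h, 61 lie in rows 1 to 192 and 2 in rows 193 to 384, or 4.37% and 0.163% of the probes with a value there. NM_ probes at like signal gave 2.09% and 0.00899%. All 5 calls over 10-fold at 24 h and all 3 between times with stapled-peptide lie in rows 1 to 192. Between times with stapled-peptide, 67 of 68 TCONS probes over 4-fold did. At 48 h, in contrast, 8 of the 24 calls over 10-fold lie in rows 1 to 192 and 16 in rows 193 to 384, and the TCONS median difference was -0.38 and -0.28. The split into rows was chosen after these values were seen, and what part spot position has in the single-array highs was not tested. The ratio of TCONS to like-signal NM_ spread over the other 3 arrays was 1.08 in the upper and 1.06 in the lower rows, so it exceeded 1 in both.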

How the data were processed

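RNA of the 4 samples, all labelled MCF-10A, was labelled with 1 dye and hybridised to 1 Agilent array each. The deposited files hold the spot intensities that the authors' scanner software extracted, Feature Extraction 10.7.1.1 by the file headers and 9.5 by the labels, with background-subtracted processed intensities and a mark for spots well above background. The combined intensity table was checked against them and lay within 1% for 99.3% to 99.4% of probes and for 100% of TCONS probes.

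Outlier-marked spots were dropped, repeat spots of a probe averaged, and log2 processed intensities quantile-normalized over the 4 arrays with all probes (Python 3.11.15, numpy 2.4.6, pandas 2.3.3). The study's methods also name quantile normalization, followed by a transform to the median of the samples that was not done here. Intervals used scipy 1.17.1 and plots matplotlib 3.10.9. For a bound, the dim side was the higher of its own signal and the lowest well-above-background signal of its array. Weights for NM_ probes at like signal were the numbers of TCONS probes in 20 bins of mean signal. Calls used 10-fold, and single-array highs 4-fold. Steps were tested on simulated data.

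The probes named are the 5 brightest, the 8 in each direction at 48 h, 4 at 24 h, 3 between times with stapled-peptide, 5 marked on N48 alone, 5 marked on the other 3 arrays only, and the 3 names with several probes and the largest mean difference at 48 h. Neighbours in number and the RefSeq-named members are extra. The members and lists were chosen with earlier results of these data known. Alternatives were other scalings, no normalization, outliers kept, normexp with offset 50 on median pixel signals (R 4.3.3, limma 3.58.1), other thresholds, marks and bins, and leaving out each array. Loci of several transcripts and neighbouring genes were not analysed here.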

Additional observations from a re-analysis of the deposited data

Results flagged for a closer look

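Both TCONS probes left out for an outlier-marked spot had their highest unnormalized log2 signal in that spot. TCONS_00014742 (A_21_P0005713) had 6.945 in the marked spot of N48, and 4.80, 5.13 and 4.37 on S24, N24 and S48, all well above background. TCONS_00024847 (A_21_P0009101) had 16.32 in the marked spot of S24, and 3.93, 2.80 and 1.69 on N24, S48 and N48, none of them well above background. The 95th percentile of negative controls was 1.69 on N48 and 2.24 on S24.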

How the results depend on the processing

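With 1 array per condition, no difference between peptides or times has a replicate check, and spots dim on an array give only bounds. A fit of peptide and time without their interaction, which would leave 1 residual degree of freedom, was not run. Under the mark for positive and significant spots the detected shares were 73.7%, 76.4%, 74.5% and 75.8% on S24, N24, S48 and N48, and counted above the 95th percentile of negative control spots they were 73.5%, 75.6%, 73.9% and 75.01%. By that percentile 9.66% of TCONS probes were on exactly 1 array and 4.24% on N48 alone. Without N48, 11.4% were on exactly 1 array. The spread ratio of 0.929 passed 1 without N48 at 1.103 (range over left-out arrays 0.914 to 1.103), with only probes well above background on all arrays at 1.07, and, in alternatives chosen after the data were seen, at 1.11 with S24, N24 and S48 normalized alone and 1.14 among probes well above background on those 3.

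For the calls over 10-fold between peptides at 48 h (24) and 24 h (5), and between times with stapled-peptide (3) and non-specific stapled-peptide (33), normexp gave 7, 0, 0 and 7. A threshold of 4-fold gave 177, 63, 68 and 164, and one of 100-fold 2, 0, 0 and 1. Without the bound for dim probes there were 101, 41, 50 and 103, and among probes well above background on both arrays 13, 0, 0 and 18. No normalization gave 3 at 24 h and 5 between times with stapled-peptide. Pairs of the same name with the same sign rose from 75.8% to 95% among probes well above background on both arrays, and were 64.7% among names with a value for exactly 2 probes, an alternative also chosen after the data were seen. Of 204 values for 30 named differences, 39 moved by over 2-fold and 0 changed sign. The 30 were picked as the largest differences, so a sign change was unlikely from the start. For probes well above background on both arrays, the settings that treat dim probes otherwise leave the value as it was. The causes of these shifts were not tested, other than what each setting itself adds or removes.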
